A study of Mus musculus with 4 samples.

Results

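Western diet response of the C3H aorta was described from 2 arrays, the aorta of C3H/HeJ mice without apolipoprotein E (apoE-/-) on Western diet and the aorta of the same strain on chow. They are 2 of the 4 arrays of the study. Every probe set on the array that is not a control was taken, 22626 of 22690, and none was chosen by its value. Both C3H groups, and both C57BL/6 groups used beside them, were female apoE-/- mice 6 weeks old. All had been weaned onto chow at 3 weeks of age. At 4 weeks the Western groups changed to Western diet for 2 weeks, and the chow groups ate chow throughout. The labels describe the chow condition as hyperlipidemia and the Western one as extreme hyperlipidemia. Each group has 1 array, and whether the RNA came from 1 mouse or from several is not stated in these sources. There is therefore no replicate and no test. Differences are set against the disagreement between probe sets of the same gene and against all genes measured.

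Apolipoprotein E lets the liver take up lipoprotein remnants, and mice without it carry cholesterol-rich remnants in their blood even on chow. Western diet, rich in fat and cholesterol, raises them further. In the arterial wall, lipoproteins held by matrix proteoglycans are known to switch on endothelial adhesion molecules, to draw in monocytes, and to load macrophages with sterol. Smooth muscle cells make the collagens, elastic fibres and proteoglycans of the wall, and brown fat surrounds the aorta of the mouse. C3H mice are known to form small lesions, and C3H/HeJ mice carry a defective Toll-like receptor for endotoxin.

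Signals below are linear, quantile normalized over the 4 arrays, and given in the order C57BL/6 chow, C57BL/6 Western, C3H chow and C3H Western unless stated. Differences are log2 values of C3H Western minus C3H chow. A signal above the floor of 83.6, the 40th percentile of all values, counts as measured, and a gene stands for its probe set with the highest mean signal. The C3H chow array, against which every difference is taken, stood apart. Its hybridization controls, RNAs added in fixed amounts, were 1.64 times those of the other arrays (median of 18 probe sets, 0.772 to 0.938 times on the others). The 3' over 5' ratio of its actin control probe sets stood at 2.28, where the other arrays had 1.63 to 1.83. The same ratio of its Gapdh control probe sets did not stand apart, with 1.19 against 1.03 to 1.28 on the others. Its correlations with the other arrays, over the 8740 probe sets measured on all 4, were 0.868 to 0.904, while the highest correlation of each of the other arrays was 0.928 to 0.931. Smooth muscle markers (Acta2, Myh11, Tagln, Cnn1) and the brown fat markers (Ucp1, Cidea, Dio2, Cox8b) were all measured on all 4 arrays, so the tissue held fat as well as vessel wall. Heart muscle markers (Myl7, Tnnt2, Myh6) summed to 7345 and 5974 on the C57BL/6 arrays against 126 and 154 on the C3H arrays. Apoe gave 19.1, 65.3, 16.1 and 55.5, under the floor throughout. Whether its probe set lies in the disrupted stretch is not known here, so this checks the labels little.

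The C3H aorta on Western diet had more signal of matrix, contractile and interferon-induced genes than on chow. Several macrophage, neutrophil and MHC class II genes were also higher. Fat, immediate early and glucocorticoid-induced genes had less signal. Of the 10681 probe sets measured on both C3H arrays, 684 (6.40%) were at least 2-fold higher on Western diet and 635 (5.95%) were at least 2-fold lower. The SD of all log2 differences was 0.65 and their median was 0.00. When arrays were instead scaled to equal medians, 865 were higher and 455 lower, and the median of all probe sets moved to 0.11. Dim probe sets supplied most of the large differences. Among the 3820 whose dimmer C3H signal lay within 2 times the floor, 10.8% were higher and 10.6% lower by 2-fold, against 2.68% and 1.89% of the 1901 whose dimmer signal exceeded 8 times the floor.

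**Figure D1:**
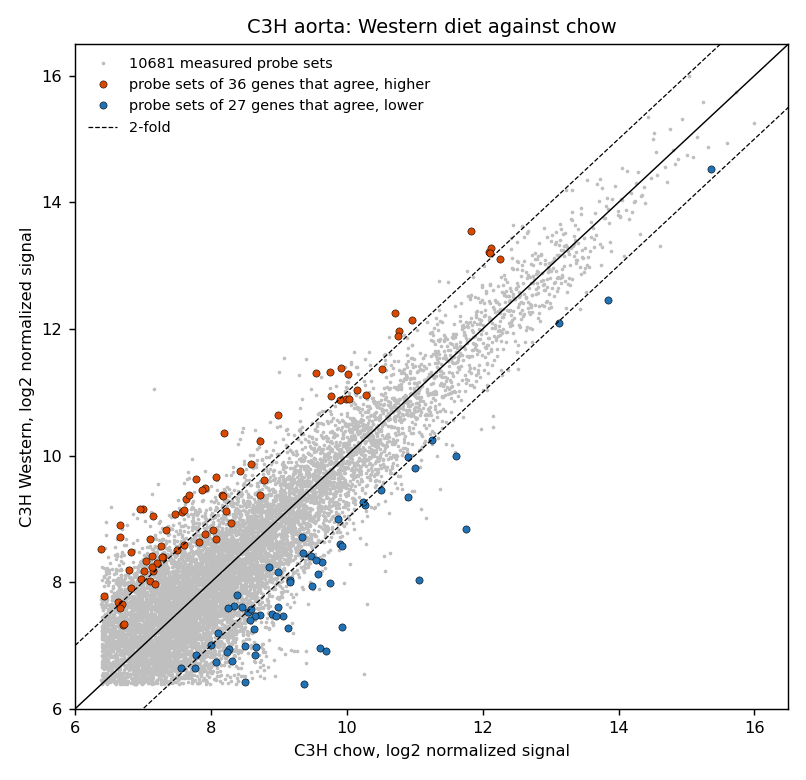
Log2 normalized signal on C3H Western (y axis) against C3H chow (x axis) for the 10681 probe sets measured on both arrays, with dashed lines at 2-fold; coloured points are all measured probe sets of the 36 genes higher and the 27 genes lower by every measured probe set. The grey cloud narrows as signal rises, and the coloured genes lie over the whole range of signal.

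Probe sets of 1 gene gave a measure of agreement within these 2 arrays. For 2105 genes, 2 or more probe sets were measured on both C3H arrays, and all of them pointed the same way for 1049 genes (49.8%). When 1 probe set of such a gene was at least 2-fold higher, 31.1% of the gene's other measured probe sets were at least 1.5-fold higher (17.8% of all these probe sets were), and 9.69% were at least 1.5-fold lower (16.6% of all). For probe sets at least 2-fold lower, 32.3% of the others were at least 1.5-fold lower (16.6% of all) and 9.90% at least 1.5-fold higher (17.8%). The pooled SD between probe sets of a gene was 0.58, against an SD of 0.65 over all of these probe sets. A 2-fold difference of 1 probe set was therefore matched by its gene's other probe sets more often than over all probe sets, but still in a minority of cases.

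Agreement between probe sets was required for the genes of this paragraph. It was not required in the gene lists below, which take 1 probe set per gene. Some genes named there have 1 probe set or sets that disagree. A mean of at least 2-fold with every measured probe set at least 1.5-fold in the same direction was met by 36 of 2105 genes higher on Western diet (1.71%) and 27 lower (1.28%). Kcnab1, a subunit of voltage-gated potassium channels, led those higher with a mean of 1.86 over 2 probe sets, followed by Vcam1, the endothelial adhesion molecule, with 1.74. Gprc5b, an orphan receptor, had 1.61, and the collagen and elastin cross-linking enzyme Lox had 1.54. The matrix genes Ogn (1.37), Bgn (1.33) and Col4a5 (1.35), the desaturase gene Scd2 (1.51), the neural cell adhesion molecule Ncam1 (1.39) and the chaperone gene Hsp90b1 (1.29) were among the rest. Dio2, which activates thyroid hormone, led the genes lower on Western diet with -2.97. After it came Cyp2b10 (-2.27), a drug-metabolizing cytochrome P450 induced through the receptor CAR, and Ppargc1a (-2.24), the coactivator of mitochondrial biogenesis. Further down were the kinase gene Snrk (-1.79), Tiparp (-1.65), a target of the aryl hydrocarbon receptor, the VEGF receptor Flt1 (-1.38), the endothelial transcription factor Sox17 (-1.34) and the insulin-responsive glucose transporter Slc2a4 (-1.25). In the C57BL/6 arrays, by the same rule, 10 genes were higher and 25 lower of 2197. No gene was agreed higher in both strains and 1 was agreed lower in both, while 3 were higher in C3H and lower in C57BL/6, and 2 the opposite. With so few genes agreed in each strain, little or no overlap in the same direction is what unrelated lists would also give. These counts were not tested against each other.

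**Figure D2:**
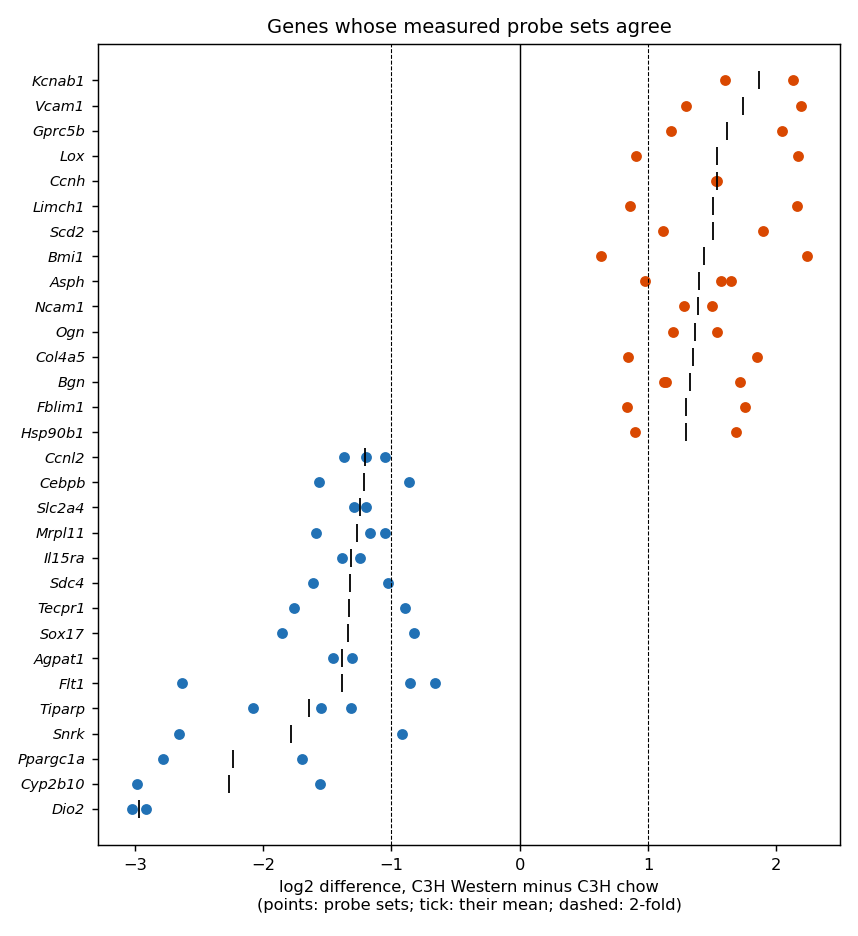
Log2 difference of C3H Western minus C3H chow (x axis) for each measured probe set (points) and their mean (tick) of the 15 genes per direction with the largest mean among those whose probe sets agree; dashed lines mark 2-fold. Dio2, Ccnh, Agpat1 and Slc2a4 have probe sets close together, while those of Snrk, Flt1 and Bmi1 lie more than 1.5 log2 units apart.

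Because all differences share the C3H chow array, the C57BL/6 arrays were used to see which C3H array lay apart. Of 608 probe sets at least 2-fold higher on Western diet and measured on all 4 arrays, 348 (57.2%) had C3H chow at least 1.5-fold below both C57BL/6 arrays while C3H Western was not at least 1.5-fold above them. In 99 (16.3%) only C3H Western lay 1.5-fold apart, in 15 both did and in 146 neither. Of 508 lower probe sets, C3H chow alone lay apart (above) in 222 (43.7%) and C3H Western alone (below) in 127. In both directions C3H chow alone lay apart more often than C3H Western alone. Of the genes with agreeing probe sets, 35 higher and 26 lower were measured on all 4 arrays. Among the higher, C3H chow alone lay apart for 20, such as Bgn, Lox, Ogn, Ncam1 and Scd2, C3H Western alone for 2 (Eogt and Gprc5b), both for 2 (Bmi1 and Nr3c1) and neither for 11, Vcam1 and Gbp2 among them. Among the lower, C3H chow alone lay apart for 12, such as Dio2, Slc2a4 and Lpl, C3H Western alone for 4 (Atp1b1, Cyp2b10, Sdc4 and Trp53inp1), both for 3 (Ppargc1a, Sox17 and Srek1) and neither for 7. Gene groups likewise differed in which array lay outermost by list median relative to the mean of the 4 arrays. It was C3H chow or C3H Western for some and a C57BL/6 array for others. C57BL/6 chow was outermost for collagens (1.01, against -0.76 on C3H chow), and C57BL/6 Western for immediate early genes (-0.90, against 0.83 on C3H chow). For scale, among the 5646 genes measured on all 4 arrays, C3H chow was the lowest array for 30.6% and the highest for 30.9%, and C3H Western for 22.0% and 22.2%.

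**Figure D3:**
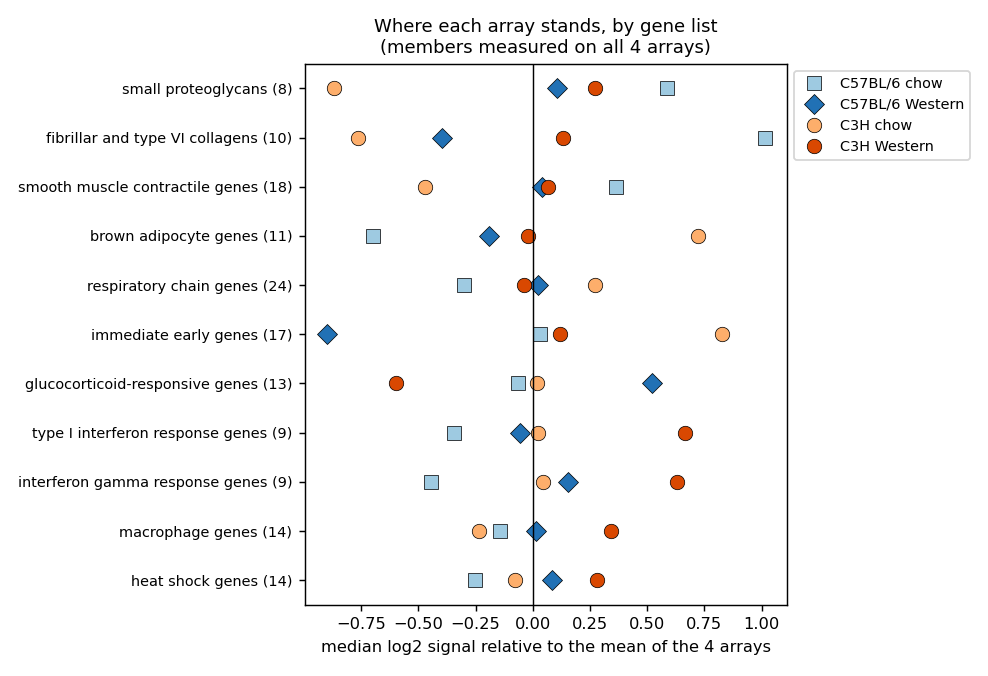
Median log2 signal of each array relative to the mean of the 4 arrays (x axis) for 11 gene lists, over members measured on all 4 arrays (number in brackets). C3H chow (light orange) is outermost for proteoglycans (-0.87) and, narrowly, for brown adipocyte genes (0.72, against -0.70 on C57BL/6 chow). C3H Western (dark orange) is outermost for glucocorticoid-responsive genes (-0.60) and both interferon lists (0.66 and 0.63). A C57BL/6 array is outermost for collagens, respiratory chain genes and immediate early genes.

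Small proteoglycans, which space collagen fibrils, were listed together with Vcan, versican, a large proteoglycan that binds lipoproteins. Its 2 measured probe sets differed by 1.17 and 0.22. All 8 measured members of 10, Vcan included, were at least 1.5-fold higher (17.1% of 6690 genes measured were), with a median log2 difference of 1.04 against -0.01 over all genes. Bgn, biglycan, gave 17604, 10264, 3643 and 12001, so C3H chow was the lowest array and C3H Western lay between those of C57BL/6. Its 3 probe sets were 3.29-fold (log2 1.72), log2 1.14 and log2 1.13 higher. Ogn, osteoglycin, gave 6503, 4079, 1671 and 4850.0 (1.54 by the brighter and 1.19 by the other probe set), and Lum, lumican, gave 1247, 601, 401 and 1356 (1.76). Dcn, decorin, differed less, with 7920.4, 6377, 3291 and 5456 and a difference of 0.73. C3H chow was the lowest of the 4 arrays for 8 of 8 members, and all 5 members with several measured probe sets pointed 1 way. The list's members that lay under the floor on 1 array, here Aspn, asporin (83.0 on C3H chow and 296.8 on C3H Western), do not enter the median.

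Fibrillar and type VI collagens, the tensile scaffold of the wall, were listed together with the fibril-associated Col12a1, Col14a1 and Col15a1 and followed the same order. Of 10 measured members 7 were at least 1.5-fold higher and 0 lower, with a median of 0.87. Col1a2, a chain of type I collagen, gave 18678, 6736, 4423 and 9397, and its 2 probe sets differed by 1.09 and 1.14. Col3a1 gave 22024, 6619, 5807 and 10570.5 (0.86 by both probe sets), and Col5a2 gave 4538, 1238, 744 and 1984 (1.41). C3H chow was lowest for 8 of 10 members, and C57BL/6 chow stood highest by the list median (1.01 above the mean of the arrays, against -0.40, -0.76 and 0.13 on C57BL/6 Western, C3H chow and C3H Western). Col12a1 went the other way, from 263.4 on C3H chow to 82.7, just under the floor, on C3H Western. Elastic fibre genes had a median of 0.82, with 8 of 12 measured members higher and 1 lower. Mfap4, a microfibril protein with 1 probe set, gave 4149.5, 1028, 632 and 2486 and was 3.94-fold higher. Mfap5 gave 7224, 1708, 869 and 1959 (1.17 and 1.32), while the probe sets of Eln, elastin, gave 1.14 and 0.13. Efemp1 was the member lower, by -0.67. Matricellular genes, secreted regulators of cell and matrix contact, had a median of 0.40 with 4 of 10 higher, among them Postn, periostin (8117, 5604, 2884 and 6854, 2.38-fold higher). Ccn1, which is also an immediate early gene, was lower by -1.11. Basement membrane genes (median 0.21, 3 of 13 higher and 1 lower), collagen processing enzymes (0.04, 2 of 11 higher and 3 lower) and matrix proteases with their TIMP inhibitors (0.25, 3 of 8 higher and 1 lower) lay nearer to all genes. The collagen chaperone Serpinh1 had probe sets of opposite sign (-0.97 and 1.29).

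Contractile genes of smooth muscle were higher as a group by smaller amounts. Of 18 measured members 17 lay above 0 and 7 were at least 1.5-fold higher, with 0 lower and a median of 0.48. Cnn1, calponin, gave 6948, 4320.3, 2622 and 6948 and was 2.65-fold higher. Itga8, an integrin subunit of contractile cells, gave 2666, 1630.0, 709 and 2128 (1.59), Kcnmb1, a potassium channel subunit, differed by 1.61 and 0.31 in its 2 probe sets, and Tagln, transgelin, gave 23900.4, 18838, 9574 and 18678 (0.96). Acta2, smooth muscle actin, gave 54541, 40729, 23565 and 34861, a difference of 0.56, and Myh11, smooth muscle myosin, differed by 0.50, both under 1.5-fold. C3H chow was the lowest array for 16 of 18 members. Summed over the 4 smooth muscle markers, signal was 95816, 71980, 41358 and 68407. The brown fat markers (40171, 46166, 78351 and 53423) stood in the opposite order on C3H chow. White fat markers (Lep and Adipoq, with 1 above the floor on each array) summed to 7990, 12272, 14229 and 13775. In bulk tissue, fewer cells of a type and less RNA per cell cannot be told apart, and the part of tissue composition in the differences below was not tested.

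Contractile genes are known targets of serum response factor, which binds the CArG box. The promoter of Myl9, a myosin light chain gene (20288, 16929, 10159.7 and 18838, a difference of 0.89), is shown because it alone held, among the 16 contractile promoters found in RefSeq for 20 genes, the CArG box in the 250 bases before to 50 after the start (6.25%, against 1.57% of 27025 promoters, the first listed for each gene). It lies on chr2:156775214-156775513, plus strand, of GRCm38.p6, the C57BL/6J reference, and not of C3H. Capitals mark the box, from -161 to -152 relative to the start.
Myl9: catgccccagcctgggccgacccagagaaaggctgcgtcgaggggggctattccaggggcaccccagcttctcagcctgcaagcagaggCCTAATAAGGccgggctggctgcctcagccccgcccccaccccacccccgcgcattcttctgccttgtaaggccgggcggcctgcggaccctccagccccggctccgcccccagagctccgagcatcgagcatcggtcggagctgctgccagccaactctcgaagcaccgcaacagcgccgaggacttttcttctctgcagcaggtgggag

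Endothelial genes were lower by median and mixed by member. Of 16 measured, 11 lay below 0, and 2 were at least 1.5-fold higher and 4 lower, with a median of -0.34. Pecam1 (1815, 1884, 1398 and 1759) and Cdh5 (348, 348, 416 and 387), which define the cell type, differed by 0.33 and -0.10. Summed over both and Kdr, a further marker, signal was 2427, 2504, 2353 and 2766. The lower members were Flt1, Sox17, Egfl7 (-0.65) and Eng (-0.61), led by Flt1, a VEGF receptor, with 190.1, 515, 975 and 157. C3H chow was highest and C3H Western lowest there, and its 3 probe sets differed by -2.63, -0.85 and -0.66. Sox17, a factor of arterial endothelium, gave 347, 323, 561 and 156, and its other probe set gave 50.4, 116.1, 506.8 and 286.6 (-0.82). Robo4, an endothelial guidance receptor, gave 254, 91.8, 386 and 11.5 and so was at least 4.62-fold lower on Western diet by its 1 probe set. Tek, the angiopoietin receptor, was 1.78-fold higher.

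Vcam1, which captures monocytes and lymphocytes at the endothelium, was among the clearest differences outside matrix and fat. Its brightest probe set gave 182, 423, 124 and 568, and the further sets gave 131.6 and 322.8 and, with chow under the floor, 43.0 and 231.1 on C3H chow and Western. Both Western arrays lay above both chow arrays. Icam1 gave 114, 179, 188 and 309.5 (0.72), and Itgb2, the leukocyte integrin chain, gave 54.6, 236, 120.3 and 241 (2.00-fold). Of 5 adhesion genes measured of 12, 3 were at least 1.5-fold higher and 0 lower, and Madcam1 went from 190.1 on C3H chow to 29.1, under the floor.

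Macrophage genes were higher in part. Of 17 measured, 7 were at least 1.5-fold higher and 1 lower, with a median of 0.29. With the members under the floor on 1 array raised to it, the median over 22 was 0.60. Ctss, a lysosomal protease, gave 239, 373, 193 and 539 (1.48), and Tyrobp, an adaptor of myeloid receptors, gave 198, 195, 161 and 393 (1.29). Lgals3, galectin-3 of foam cells, gave 462, 481, 357 and 807 (1.18). The defining markers differed less or by bound. Cd68 differed by 0.29, C1qa by 0.03 and the 3 probe sets of Csf1r by 0.40 to 0.91, and Adgre1, which encodes F4/80, was at least 3.15-fold higher (106, 224, 40.5 and 264). Aif1 was lower, with 10.2, 156, 234 and 95.3. Of 14 members measured on all 4 arrays, C3H Western was the highest for 7 (22.2% of all genes). C3H chow was the lowest for 9 (30.6% of all genes). Summed over 4 defining markers, macrophage signal was 1309, 1537, 1824 and 2545, and over 3 neutrophil markers 529, 1617, 689.6 and 2087. Of 5 chemokines measured, 2 were at least 1.5-fold higher and 0 lower, Ccl8 and Ccl9 (1.35 and 0.18 by its 2 probe sets), while Cxcl16 (-0.12) and Ccl11 (0.04) differed little and the probe sets of Cxcl12 disagreed (0.39 and -1.45). Ccl8, a monocyte chemoattractant, gave 238, 213, 236 and 632, with C3H Western apart from 3 similar arrays (2.68-fold). Ccl6, a macrophage chemokine, was at least 5.24-fold higher (234, 443, 47.8 and 438). Among neutrophil genes, S100a9 was 3.78-fold higher (218, 871, 350.5 and 1325) and S100a8 4.65-fold (104, 496, 116 and 538), with both Western arrays above both chow arrays, while the neutrophil granule gene Ngp gave 223.6 and 224.0 in C3H and Il1b, interleukin-1 beta, was lower by -0.99. Of 5 measured members of the MHC class II list 4 were at least 1.5-fold higher (median 1.05). They were Ctss, which processes the invariant chain, H2-Aa (1.07 and 0.48 by its 2 probe sets), H2-Eb1 (1.05) and Cd74 (0.84). C3H chow was the lowest array for all 5.

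Type I interferon response genes were highest on C3H Western, with C3H chow near the other arrays. Of 15 measured members 13 lay above 0 and 6 were at least 1.5-fold higher (17.1% of all genes measured were), with 0 lower and a median of 0.50. C3H Western was the highest array for 7 of 9 members measured on all 4, against 22.2% of all genes. Rsad2, the antiviral enzyme viperin, gave 650.2, 535, 537 and 2987. Its C3H chow signal lay with those of C57BL/6 and C3H Western stood 5.56-fold above it. The other 2 probe sets gave 175.0 and 390.9 (1.16) and 150.7 and 179.1 (0.25) on C3H chow and Western, so the size differed widely between probe sets. Ifit1, an interferon-induced RNA-binding protein, gave 156, 13.1, 119.8 and 407 (1.77), and Rtp4 gave 269.9, 362, 92.4 and 581 (2.65). Irf7, the regulator of interferon genes, differed by 0.64 and Ifitm3 by 0.70, while Ifit3 (0.16), Usp18 (0.26) and Bst2 (-0.12) differed little. Ifit2 went from 108.8 to a signal under the floor. Of 12 measured interferon gamma response genes 3 were at least 1.5-fold higher and 1 lower, where 17.1% of all genes measured were higher. The median was 0.45, and C3H Western was again highest for 7 of 9. The GTPase Gbp2 differed by 1.61 and 0.61 in its 2 probe sets and Igtp by 1.01. Tap2, a peptide transporter, was lower by -1.25, and Iigp1 had probe sets of opposite sign (0.94 and -1.14).

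Interferons act through a complex of STAT proteins and Irf9 that binds the interferon-stimulated response element. Its core, searched on both strands like the other motifs here, as GAAA, any 2 bases and GAAA, was held by 10 of the 17 promoters found in RefSeq for the 25 genes of the list (58.8%, against 3.49% of 27025 promoters). Of the 3 measured members with the largest differences, Rtp4 (2.65) was not among the 10 with the core. The promoters of Rsad2 and Ifit1, the others of the 3, are shown because they held it. They lie on chr12:26456403-26456702, minus strand, and chr19:34640639-34640938, plus strand, of GRCm38.p6. Capitals mark the core, which reads on the opposite strand in both, from -120 to -111 in Rsad2 and from -104 to -95 and -85 to -76 in Ifit1. Members without the core in this window, such as Irf7, were also higher, and members with it, such as Bst2, were not.
Rsad2: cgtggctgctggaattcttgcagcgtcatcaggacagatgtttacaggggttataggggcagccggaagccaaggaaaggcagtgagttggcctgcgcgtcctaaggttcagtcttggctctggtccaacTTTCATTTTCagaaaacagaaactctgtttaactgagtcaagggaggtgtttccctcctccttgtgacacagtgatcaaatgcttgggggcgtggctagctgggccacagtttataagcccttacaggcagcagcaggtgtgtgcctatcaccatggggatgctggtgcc
Ifit1: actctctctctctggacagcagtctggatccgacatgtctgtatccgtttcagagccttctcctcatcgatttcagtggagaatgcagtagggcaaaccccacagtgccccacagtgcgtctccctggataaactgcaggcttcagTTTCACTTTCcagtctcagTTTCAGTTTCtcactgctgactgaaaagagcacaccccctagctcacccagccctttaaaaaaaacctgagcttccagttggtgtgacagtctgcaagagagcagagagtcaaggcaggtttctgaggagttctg

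Sterol efflux genes and other targets of LXR, the oxysterol receptor, had a median of 0.34, with 4 of 13 measured members at least 1.5-fold higher and 2 lower. Abcg1, a cholesterol exporter, gave 378, 764, 214 and 576 (1.43), Lpcat3 gave 332, 293, 212 and 487 (1.20) and the receptor gene Nr1h3 differed by 0.66. Scd2, a desaturase, gave 581, 632, 141 and 526, where C3H chow was low and the other 3 arrays were close. Abca1, the exporter to apolipoprotein A-I, differed by 0.34. The lower members, Lpl (2 probe sets, -0.83 and -1.40) and Apoc1 (-0.99), were lipoprotein genes, and Lpl is abundant in fat. Genes of cholesterol synthesis, which sterol is known to repress, showed no common direction (median 0.04, 2 of 12 higher and 2 lower). Srebf2, their main activator, gave 152, 243, 185 and 88.5 (-1.07 and -0.78 by its 2 probe sets), while Fdps (1.05) and Lss (1.10) were higher.

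Brown adipocyte genes had their highest signals on C3H chow and were lower on Western diet. Of 11 measured members 5 were at least 1.5-fold lower (17.1% of all genes measured were) and 0 higher, with a median of -0.49, and C3H chow was the highest array for 10 of 11. Dio2 gave 306, 361, 3451 and 457, so C3H chow stood above 3 similar arrays, and C3H Western was 7.55-fold lower than chow. Its other probe sets gave 2128 and 261.4 (-3.02) and, with Western under the floor, 433.0 and 36.3. Ppargc1a gave 211, 211, 831 and 121, and all 5 of its probe sets were lower on C3H Western, 3 of them under the floor there. Its relative Ppargc1b gave 389.9, 649.9, 1568 and 544 (-1.53), and Elovl3, a fatty acid elongase of activated brown fat, gave 318, 456, 1490.3 and 342 (-2.12). Ucp1, the uncoupling protein, gave 10640.1, 9098, 25040.3 and 10130.1 and was 2.47-fold lower. Dio2, Ppargc1a, Elovl3 and Ucp1 are known to be induced by cold in brown fat. Of other genes of the cell type, Cidea differed by -0.23, Cox8b by -0.21 and Cox7a1 by -0.24. The brown fat identity gene Ebf2 had probe sets from -0.61 to 0.35. Noct, a circadian deadenylase, and Cebpb, a factor of adipocyte differentiation, were also highest on C3H chow, with 158, 337, 1058 and 313 and 656, 882, 1916 and 649.

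**Figure D4:**
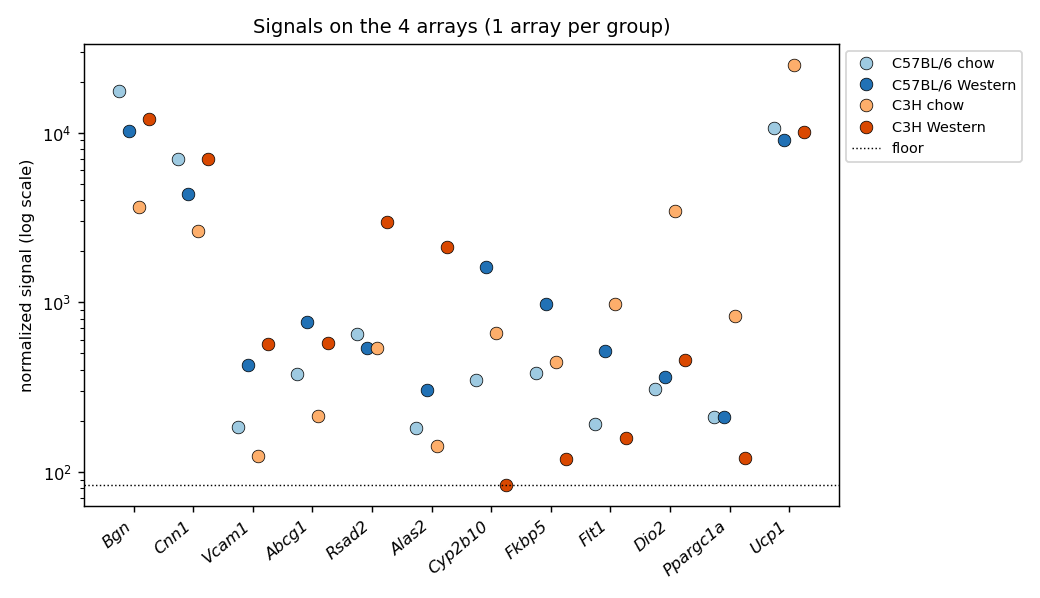
Normalized signal (log scale) of 12 genes on the 4 arrays, 1 point per array, with the floor of 83.6 dotted. Dio2, Ppargc1a and Ucp1 stand highest on C3H chow and Bgn and Cnn1 lowest there, while Rsad2 and Alas2 stand highest, and Cyp2b10 and Fkbp5 lowest, on C3H Western.

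Cyclic AMP acts on genes through the cAMP response element, TGACGTCA. The promoter of Dio2 is shown because Dio2 had the largest agreed difference and alone held this palindrome among the 12 brown adipocyte promoters found in RefSeq for 18 genes (8.33%, against 1.88% of 27025 promoters). It lies on chr12:90738989-90739288, minus strand, of GRCm38.p6, and capitals mark the element, from -95 to -88. Whether it was bound in these tissues was not measured.
Dio2: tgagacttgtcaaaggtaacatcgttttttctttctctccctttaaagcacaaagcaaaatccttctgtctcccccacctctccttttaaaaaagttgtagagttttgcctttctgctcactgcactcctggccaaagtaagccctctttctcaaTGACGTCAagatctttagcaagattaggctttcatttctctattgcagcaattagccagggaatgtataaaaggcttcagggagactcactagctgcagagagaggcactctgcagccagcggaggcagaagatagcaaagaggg

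General adipocyte genes were lower by less, with 6 of 14 measured at least 1.5-fold lower, 0 higher and a median of -0.42, and C3H chow highest for 11 of 13. Slc2a4, the insulin-responsive glucose transporter, gave 787, 875, 2054 and 894 (-1.20 and -1.30 by its 2 probe sets). Retn, resistin, gave 266, 452, 461 and 155 (-1.57), and the lipase gene Pnpla2 differed by -0.71. Fabp4, the fatty acid carrier, was lower in all 4 probe sets (-0.92 to -0.42), and Adipoq, adiponectin, differed by -0.05. Fatty acid and triglyceride synthesis divided. The triglyceride enzymes Dgat1 (889, 950.2, 2984 and 1145, -1.38), Dgat2 (-0.95), Gpam (-0.97 and -1.02 by its 2 probe sets) and Lpin1 (-0.81) were lower, Fasn, fatty acid synthase, differed by 0.09, and the 2 probe sets of the desaturase gene Scd1 differed by 0.38 and 2.31. Acaca (0.97) and Scd2 were higher. In all, 7 of 17 were lower and 2 higher, with a median of -0.39.

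Genes of mitochondrial energy metabolism had medians a little below 0, while the share of members at least 1.5-fold lower was near or under the 17.1% of all genes. Of 24 respiratory chain genes 22 lay below 0 with a median of -0.34, although only 2, Sdhd (-0.70) and Ndufv1 (-0.66), reached 1.5-fold. Their further probe sets did not bear this out, with 0.55 for the other set of Sdhd and a range of -0.66 to 0.04 over the 3 sets of Ndufv1. C3H chow was the highest array for 19 of 24, and 10 of 13 members with several measured probe sets pointed 1 way. Fatty acid oxidation genes had a median of -0.34 (3 of 18 lower and 0 higher), led by Acads (1186, 1777, 2442 and 1337, -0.87). Tricarboxylic acid cycle genes had a median of -0.25 (3 of 17 lower and 0 higher). Glycolysis genes had a median of -0.54, with 5 of 14 lower and 2 higher. Hk2, the hexokinase of muscle and fat, gave 1149, 1499, 3036 and 1508 (-1.01), and the 4 probe sets of Ldhb ranged from -1.15 to -0.65, while Hk1 (0.96) and the glucose transporter Slc2a1 (0.70) were higher. The heart muscle signal on the C57BL/6 arrays bears on their levels of these lists, and its part was not tested.

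Immediate early genes, which respond within minutes to growth factors, stress and handling of tissue, were highest on C3H chow. Of 19 measured members 10 were at least 1.5-fold lower on Western diet and 0 higher, with a median of -0.60, and C3H chow was the highest array for 12 of 17. Nr4a1, an orphan nuclear receptor also induced by cyclic AMP, gave 1316, 809.9, 4274 and 2107 (-1.02), Junb gave 249.8, 115, 476 and 173 (-1.46) and Dusp1, a MAP kinase phosphatase, gave 3862, 1508, 6758 and 3559 (-0.93). Btg2 was lower in both probe sets (-1.01 and -1.04). Fos (0.09), Klf2 (-0.12) and Ier2 (-0.06) differed little. The list was also lower on Western diet in C57BL/6 (median -0.70). Several transcripts known to stay in the nucleus or to act in splicing were also highest on C3H chow. They form no list, and they were put together, and Srek1 and Malat1 added, after their values were seen. The noncoding RNA Neat1 gave 1085, 1035, 2655 and 706 (-1.91), and Ccnl1, a cyclin of splicing speckles, gave 1219, 1333, 4036 and 1362 (-1.57). Its relative Ccnl2 was lower in all 3 probe sets (-1.37 to -1.05), Srek1, a splicing factor, in all 3 of its own (-1.51 to -0.90), and Malat1 in 3 of 4 measured sets (-1.37 to 0.38).

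Among glucocorticoid-responsive genes C3H Western, not C3H chow, was outermost, on the low side. Of 14 measured members 8 were at least 1.5-fold lower and 1, Lcn2 (0.85), was higher, with a median of -0.61, and C3H Western was the lowest array for 8 of 13, against 22.0% of all genes. Fkbp5, a cochaperone of the glucocorticoid receptor, gave 383, 972, 444 and 119, with C3H Western the lowest. Its other probe set, however, gave 327.7, 449.3, 106.2 and 178.2, a difference of 0.75. Klf9, a transcription factor, gave 3553, 5000.4, 2020.0 and 883, and 3 of its 4 measured probe sets were lower (-1.19, -0.78 and -0.77) and 1, close to the floor, higher (1.06). The metallothioneins Mt1 (10570.5, 11408, 8167 and 5441, -0.59) and Mt2 (2162, 2605, 1804 and 1032, -0.81), which bind zinc and copper, and the sulfotransferase Sult1a1 (3028, 3802, 2566 and 1649.8, -0.64) were lowest on C3H Western. Sgk1, a kinase of salt transport, gave 848, 864, 2208 and 1120.1 and Cdkn1a gave 1032, 1115, 1712 and 720.4, so for these C3H chow was high. Tsc22d3, which encodes GILZ, differed by 0.35 and Per1 by -0.21. None of the 4 members with several measured probe sets had all of them on 1 side of 0. The receptor gene itself, Nr3c1, was higher by its 2 measured probe sets (804, 965, 507 and 1591, 1.65, and 0.64 by the other). Cyp2b10, outside the list, also stood lowest on C3H Western, with 346, 1605, 662 and 83.8, and both its measured probe sets were lower (-2.98 and -1.55).

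Genes of erythroid heme synthesis gave the largest single difference. Alas2, the erythroid enzyme that starts the pathway, gave 180.3, 304, 143 and 2116, 14.8-fold higher on C3H Western than on C3H chow by its 1 probe set. Fech, which inserts the iron, gave 994, 1341, 1049 and 2425 (1.21), but its other measured sets differed by 0.74 and -0.33. Car2, carbonic anhydrase, gave 265, 204, 209.8 and 573 (1.45), and the 3 probe sets of Bpgm, which makes the red cell's 2,3-bisphosphoglycerate, were all higher (0.54, 1.12 and 2.25). Slc25a37, the mitochondrial iron importer of erythroid cells, picked after its values were seen, gave 167, 192, 215 and 464 (1.11). Tent5c gave 108, 54.1, 73.8 and 752, at least 9.0-fold higher. Summed over Alas2, Hba-a1 and Slc4a1, signal was 243, 420.2, 399 and 2253, nearly all of the last from Alas2. Epor, the erythropoietin receptor, differed by 0.87. The globins and the membrane protein were not higher. Hba-a1, alpha globin, gave 17.8, 56.5, 110.4 and 8.41, Hbb-b2, beta globin, gave 103, 80.9, 223 and 186, and Slc4a1, the anion exchanger of the red cell membrane, gave 44.5, 60.2, 146 and 128. Klf1, their transcription factor, went from 104.9 to 19.9, under the floor, and probe sets that name several globin genes were not used. Of 9 measured red cell genes 5 were higher and 0 lower, with a median of 0.87, but the median was 0.01 over 11 with those under the floor on 1 array raised to it, -0.04 with no floor and -0.09 with only plain probe sets. Heme synthesis outside the erythroid step, such as Alas1 (-0.77) and Alad (-0.56), was not higher, and Uros was (27.6, 121, 103 and 357, 1.79).

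Smaller groups had mixed directions. Heat shock genes had a median of 0.31 with 5 of 14 higher and 0 lower, and Hsp90b1, the chaperone of the endoplasmic reticulum, was higher in both probe sets (0.90 and 1.69), but Cryab had sets from -0.06 to 1.54. IGF genes had a median of 0.52 with 5 of 10 higher and 1 lower, although the probe sets of Igf1 disagreed (1.11, 1.04 and -0.68). Among TGF-beta and BMP genes 5 of 18 were higher and 3 lower. Bmp4 gave 259.9, 399, 97.8 and 342 (1.80), Tgfbr3 gave 426, 434, 169.8 and 524 (1.63) and Tgfb3 gave 710.3, 504, 418 and 1127 (1.43), while Smad3 (-1.22) and Acvrl1 (-1.06) were lower. Cytosolic ribosomal protein genes had a median of 0.30, with no member of 15 at 1.5-fold.

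**Figure D5:**
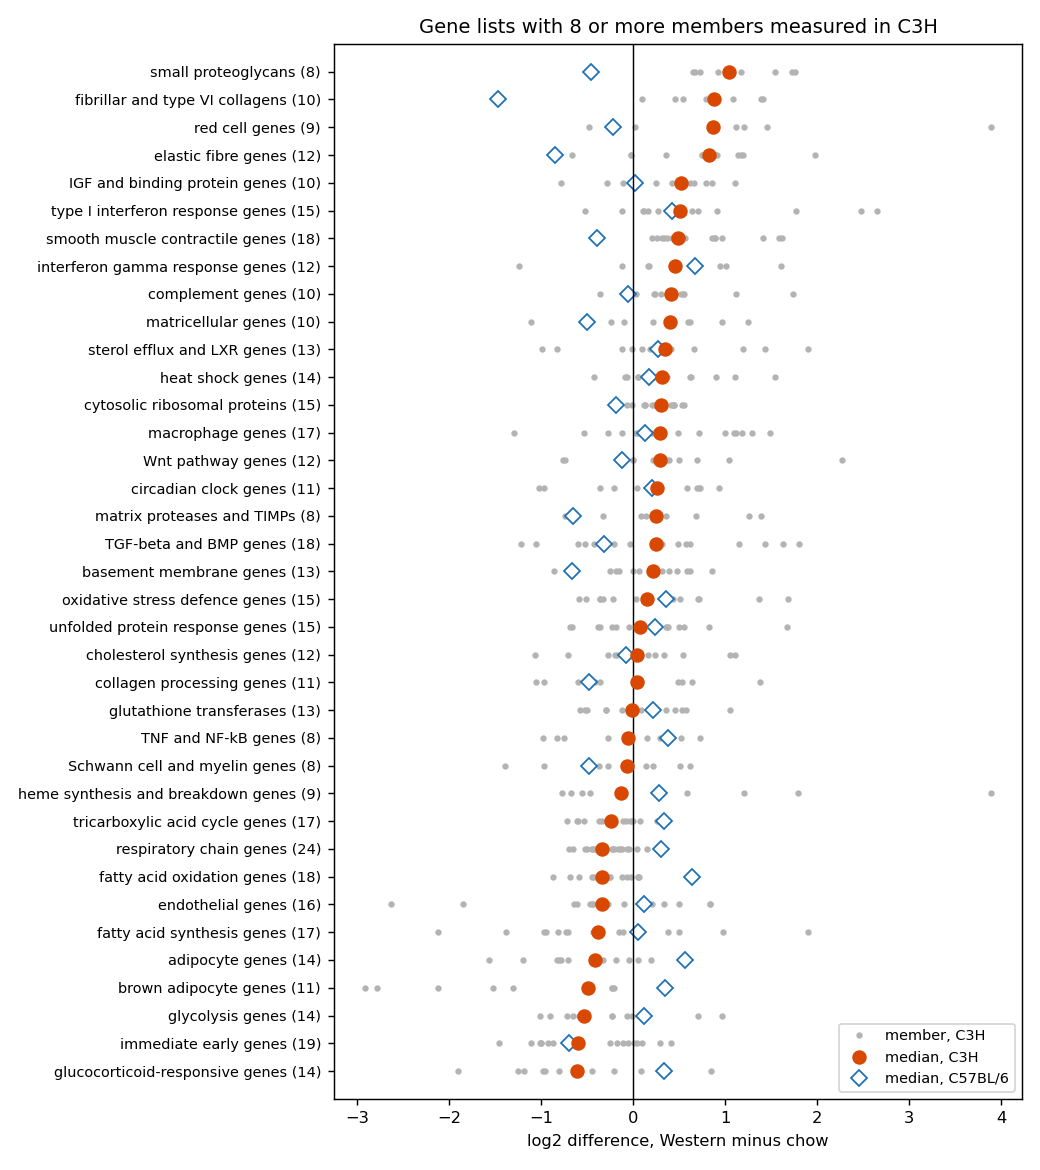
Log2 difference of Western minus chow (x axis) for gene lists with at least 8 members measured in C3H, whose number is in brackets; grey points are members in C3H, orange circles the C3H medians and open diamonds the medians of the same lists in C57BL/6. Matrix lists lie right of 0 in C3H and left of it in C57BL/6, fat and energy lists the opposite way, and immediate early and interferon lists lie on the same side in both strains.

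Genes with 1 probe set and both signals above 2 times the floor were ranked separately, since no agreement could be asked of them. Tpst1, which sulfates tyrosines, gave 663, 649, 199.6 and 794 (1.99), Itih4, a plasma protease inhibitor relative, gave 2073, 1584, 344 and 1229 (1.83) and Hexa, a lysosomal hexosaminidase, gave 315, 387, 184 and 626 (1.77). In the first 2 of these C3H chow was low, and in Hexa C3H Western was also high. Lower were Gdap10 (535, 784, 1583 and 351, -2.17), the choline kinase gene Chkb (610.4, 564, 1949 and 659, -1.56) and the kinase anchor gene Akap12 (573, 596, 2022 and 692, -1.55), all highest on C3H chow. By bound, 16 of 3506 genes (0.456%) were at least 4 times the floor on C3H Western and under it on C3H chow, and 23 (0.656%) the reverse. Among the former was Gucy1a1, a subunit of the nitric oxide receptor of smooth muscle (877, 564, 60.6 and 486, at least 5.81-fold), whose other probe set differed by 0.81. Among the latter were Bmp1, a procollagen protease (399 on C3H chow and under the floor on Western, at least 4.77-fold), and Fen1, a DNA repair nuclease (91.2, 393, 401 and 26.8, at least 4.80-fold).

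The C57BL/6 response differed in direction for matrix, contractile and fat genes, with no test of the difference, since 4 arrays leave no replicate. Median responses in C57BL/6 were -1.47 for collagens, -0.85 for elastic fibre genes, -0.46 for small proteoglycans and -0.39 for contractile genes. They were 0.34 for brown adipocyte genes, 0.56 for adipocyte genes and 0.64 for fatty acid oxidation genes, and 0.33 for glucocorticoid-responsive genes. Both strains had positive medians for type I interferon (0.50 in C3H and 0.42 in C57BL/6), interferon gamma (0.45 and 0.67), macrophage (0.29 and 0.13) and sterol efflux genes (0.34 and 0.27). Rsad2 and Alas2, however, differed by -0.28 and 0.75 in C57BL/6, and Ifit1 lay under the floor on C57BL/6 Western. Cyp2b10 went in opposite directions, -2.98 in C3H and 2.21 in C57BL/6, in both measured probe sets. By their brightest probe sets so did Fkbp5 (-1.90 and 1.34) and Flt1 (-2.63 and 1.44), but the other probe set of Fkbp5 was higher in both strains (0.75 and 0.46), and 1 of 3 of Flt1 was lower in both (-0.66 and -0.24).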

How the data were processed

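Aortic RNA of 4 groups was measured with 1 array each. The deposited values are linear intensities of 1-colour Affymetrix arrays, per the series' value table. Per the labels' protocols, total RNA was extracted with Trizol and labelled with biotin. The summarisation and scaling software is not stated in these sources. The authors' intensities have nearly equal 2% trimmed means (250.11 to 250.12), as after a common scaling, and their medians were 110.3 to 128.1. Detection calls were not used here, and 1 array per group limits the precision.

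Here 64 control probe sets were left out, and the deposited intensities were quantile normalized on the log2 scale over the 4 arrays (Python 3.11.15, numpy 2.4.6, pandas 2.3.3, scipy 1.17.1, matplotlib 3.10.9). The floor was the 40th percentile of all values. A value at or under it is a bound, and "at least" folds raise the dim array to the floor. Of 22626 probe sets, 20380 name 1 gene in the platform's annotation, 691 several and 1555 none, for 12393 genes. Entrez identifiers of 20351 matched the RefSeq table of GRCm38.p6, with 0 symbols updated. Promoter sequences are RefSeq's for the same build.

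No test was possible, so counts are read against all genes measured. Named are up to 15 genes per direction with agreeing probe sets. Up to 8 per direction had 1 probe set and both signals above 2 times the floor. Up to 8 per direction were taken by bound (at least 4 times the floor). Each list gave up to 5 members with the largest differences plus the brightest, and some members whose probe sets disagree. Other members are defining markers or members that differ little, named after their values were seen. Members, lists and rules were chosen with earlier results of these data known. Lists overlap in part, and 728 of their 814 genes are on the array. Alternatives were the deposited values, equal medians, cyclic loess (limma 3.58.1, R 4.3.3), quantile normalization of the C3H arrays alone, other floors and folds, 1 probe set per gene, plain probe sets and means over probe sets. A run of the agreement rule on simulated data checked the code only. Its noise was smaller than the spread between probe sets here, so it gives no error rate for these genes.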

Additional observations from a re-analysis of the deposited data

Results flagged for a closer look

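For 9 gene lists the median response to Western diet had opposite signs in C3H and C57BL/6, with medians from 0.33 upward in size in each strain. With 1 array per group the difference between strains was not tested, and the lists share members and both C3H arrays. The median over members measured on all 4 arrays of the C3H minus the C57BL/6 response was 2.14 for fibrillar and type VI collagens, 1.55 for small proteoglycans and 1.51 for elastic fibre genes. For matricellular genes it was 0.67 and for smooth muscle contractile genes 0.99. It was -1.43 for brown adipocyte genes, -1.07 for adipocyte genes, -0.93 for fatty acid oxidation genes and -1.01 for glucocorticoid-responsive genes. Heart muscle markers were above the floor on the C57BL/6 arrays (3 of 3 markers) and on neither C3H array but for 1 marker on Western. Their part in these differences was not tested.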

How the results depend on the processing

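No paired analysis was possible because each group has 1 array and no replicate number, and no replicate could be left out. Counts of probe sets at least 2-fold higher and lower (684 and 635) moved most with the floor and the fold. They were 1580 and 1492 for a floor set to percentile 25, 290 and 247 for percentile 60, 4823 and 4774 with no floor, 1864 and 1830 at 1.5-fold and 98 and 94 at 3-fold. With 1 probe set per gene they were 433 and 393, and with plain probe sets 440 and 421. Normalization turned the balance, with 617 and 699 for the deposited values, 581 and 656 with cyclic loess and 865 and 455 with equal medians. Genes with agreeing probe sets (36 and 27) were 60 and 16 with equal medians, 86 and 76 for a floor at percentile 25, 291 and 305 with no floor and 80 and 72 at 1.5-fold throughout. With percentile 60, 16 were lower. Of the main lists' genes, 35 and 15 were shared under equal medians and 29 and 26 under loess. Of 450 list medians recomputed, 30 changed sign, in 14 of 50 lists. In 12 of these the median had been under 0.2 in size, and the exceptions were the red cell and circadian clock lists. The red cell median (0.87) became -0.042 with no floor and -0.090 with plain probe sets, and the circadian clock median (0.26) became -0.086 with plain probe sets. Small proteoglycans (1.04) gave 0.79 as means over probe sets and 0.78 with plain probe sets, brown adipocyte genes (-0.49) gave -0.87 with no floor, and glucocorticoid-responsive genes (-0.61) gave -0.88 with plain probe sets. Of 302 named genes, 289 kept their direction under the 4 other normalizations, and the other 13, Ngp, Selp and Ctsb among them, turned in 18 of 1208 values, with differences of at most 0.20 in size to begin with. The C3H chow array is the base of every difference, and no second array of that group shows how far it would move. Signals near the floor limit 3820 of 10681 probe sets.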

Other observations

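Complement genes had a median difference of 0.41, with 9 of 10 measured members above 0 and 2 at least 1.5-fold higher. Acute phase genes had 0.16 (3 of 7 higher, 0 lower) and circadian clock genes 0.26 (4 of 11 higher, 2 lower). Nearer to 0 were oxidative stress defence genes at 0.15 (4 of 15 higher, 1 lower), unfolded protein response genes at 0.07 (2 of 15 higher, 2 lower) and glutathione transferases at -0.02 (1 of 13 higher, 0 lower). TNF and NF-kB genes had a median of -0.06 (1 of 8 higher, 3 lower). For T and B lymphocyte genes the median was 0.37 (1 of 4 higher, 0 lower). It was 0.13 over 11 with those under the floor on 1 array raised to it, and 0.03 with only plain probe sets. Wnt pathway genes had 0.29 (3 of 12 higher, 2 lower), and all 6 members with several measured probe sets had them on 1 side of 0. Mast cell markers summed to 110.3 and 133.8 on the C57BL/6 arrays, with none of 3 above the floor, and to 367 and 475 on the C3H arrays, with 2 of 3 above it on each. By these sums the markers differed more between the strains than between the diets, with 1 array per group and no test. Of the other measured genes of the mast cell list, Kit was also higher on both C3H arrays (14.7, 105, 216 and 153). Gata2 was lower there (355, 256, 223 and 175).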
